A study of Mus musculus with 24 samples.

Results

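The 4 Hox clusters of the mouse, HoxA on chromosome 6, HoxB on chromosome 11, HoxC on chromosome 15 and HoxD on chromosome 2, were described here in chromatin immunoprecipitation sequencing (ChIP-seq) of irradiated mouse embryonic fibroblasts (MEFs). The unit was the 100 kb bin of mm10. A bin was taken when it overlapped at least 1 of 38 listed Hox genes, which gave 9 of the 27268 bins in the table (26350 of them on chromosomes 1 to 19 and X), and the 10 bins on each side of every cluster served as its flanks (80 bins). HoxA held 2 of the 9 bins, HoxB 3, HoxC 2 and HoxD 2. The rule uses the positions of the genes and no measured value. The libraries held DNA bound by H2AX, DNA bound by its phosphorylated form gH2AX, or input chromatin that was not precipitated. Primary MEFs of strain C57BL6 were female or male and either wild type (WT) or SIRT7-KO (KO), which lack the NAD-dependent deacetylase SIRT7. All of them, WT included, had received 5 Gy of X-rays and recovered for 30 min, and no library of unirradiated cells was used, so the values show no response to irradiation. Each of the 12 combinations of precipitate, sex and genotype had 2 libraries. The labels do not say that the 2 came from separate cultures or embryos, so p-values measure only the spread between these samples.

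Hox genes encode homeodomain transcription factors that give cells their position along the body axis. Their order along each cluster follows the order in which they are used from head to tail, with the genes of low number in the hindbrain and neck and those of high number in limb ends, tail and urogenital tract. In fibroblasts the set of active Hox genes depends on the part of the body the cells came from, while silent stretches of a cluster are held by Polycomb chromatin. H2AX is a histone variant in nucleosomes throughout the genome, and its phosphorylation by damage kinases spreads over long stretches on both sides of a DNA double-strand break.

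The HoxA bins were chr6:52100001-52200000 with Hoxa2, Hoxa3 and Hoxa4, which pattern the hindbrain and the pharyngeal arches, and chr6:52200001-52300000 with Hoxa5, Hoxa6, Hoxa7, Hoxa9, Hoxa10, Hoxa11, Hoxa13 and the start of Hoxa3. In HoxB, chr11:96100001-96200000 held Hoxb13, a gene of the tail and the prostate, beside Calcoco2 and Ttll6, chr11:96200001-96300000 held Hoxb9, Hoxb8, Hoxb7 and Hoxb6, and chr11:96300001-96400000 held Hoxb5, Hoxb4, Hoxb3, Hoxb2 and the hindbrain gene Hoxb1. HoxC fell into chr15:102900001-103000000 with Hoxc13, a gene of hair and nail, Hoxc12, Hoxc11, Hoxc10, Hoxc9 and Hoxc8, and chr15:103000001-103100000 with Hoxc5, Hoxc4 and most of Hoxc6. In HoxD, chr2:74600001-74700000 held Hoxd13, Hoxd12, Hoxd11, Hoxd10 and most of Hoxd9, genes of the developing limb, beside Evx2. The other HoxD bin, chr2:74700001-74800000, held Hoxd8, Hoxd4, Hoxd3 and Hoxd1. Of the 38 genes, 34 lay in a single bin, and Hoxa3, Hoxb6, Hoxc6 and Hoxd9 were cut by a bin border. Each bin is called below by the outer genes it holds.

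Hox clusters are rich in CpG dinucleotides, and 1 promoter per cluster is printed to show the DNA that such a bin holds. RefSeq (GRCm38.p6) start sites were matched for 22 of the 38 genes, with 24 windows of 250 bases before to 50 after the start. These windows had a median of 14.5 CpG (range 4 to 45) against 7 over all 32851 windows of the table, and 70.8% of them against 43.5% held at least 10. Most of the Hox windows were in HoxA and HoxD, and HoxC had only that of Hoxc4, with 9 CpG. For the window with most CpG in each cluster, the 250 bases before the start are given 5′ to 3′ on the gene's strand, with each CG in capitals (the letters CG read the same on both strands). They are chr6:52260881-52261130 (minus strand), chr11:96318017-96318266 (plus), chr15:103034145-103034394 (plus, inside the annotated gene body, before a later start) and chr2:74667975-74668224 (plus). The printed bases hold 35 CpG at Hoxa13, 14 at Hoxb4, 8 at Hoxc4 and 31 at Hoxd13.
Hoxa13: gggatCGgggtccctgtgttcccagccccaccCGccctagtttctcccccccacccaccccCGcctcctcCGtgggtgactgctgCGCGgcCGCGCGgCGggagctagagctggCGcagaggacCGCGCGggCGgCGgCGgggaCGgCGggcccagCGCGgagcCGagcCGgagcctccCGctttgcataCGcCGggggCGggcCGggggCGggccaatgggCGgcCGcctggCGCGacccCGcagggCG
Hoxb4: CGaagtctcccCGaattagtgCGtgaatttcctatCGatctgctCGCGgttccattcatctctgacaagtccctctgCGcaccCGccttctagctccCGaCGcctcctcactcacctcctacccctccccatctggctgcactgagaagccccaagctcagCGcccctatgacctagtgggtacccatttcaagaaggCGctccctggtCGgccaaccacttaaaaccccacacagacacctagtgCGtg
Hoxc4: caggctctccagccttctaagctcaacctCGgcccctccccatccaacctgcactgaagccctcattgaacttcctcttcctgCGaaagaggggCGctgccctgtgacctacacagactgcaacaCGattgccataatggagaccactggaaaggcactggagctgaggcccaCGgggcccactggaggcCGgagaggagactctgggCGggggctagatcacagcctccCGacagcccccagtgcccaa
Hoxd13: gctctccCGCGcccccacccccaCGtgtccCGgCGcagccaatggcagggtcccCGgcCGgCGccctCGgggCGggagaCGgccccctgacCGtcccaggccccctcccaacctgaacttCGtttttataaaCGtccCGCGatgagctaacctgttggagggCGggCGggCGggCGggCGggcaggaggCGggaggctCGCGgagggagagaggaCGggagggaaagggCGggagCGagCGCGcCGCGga

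The clusters also carry miRNA genes of 2 shared seeds, printed because they place the same or nearly the same sequence in bins of different clusters. The seed (bases 2 to 8) is in capitals. The seed AGGUAGU is shared by miR-196a-5p, from Mir196a-1 in the Hoxb9 to Hoxb6 bin and Mir196a-2 in the Hoxc13 to Hoxc6 bin, and by miR-196b-5p in the Hoxa3 to Hoxa13 bin. The seed ACCCUGU is shared by miR-10a-5p in the Hoxb6 to Hoxb1 bin and miR-10b-5p in the Hoxd9 to Hoxd1 bin. Counts over 100 kb resolve neither a promoter nor a miRNA, so every value below is that of the whole bin.
miR-196a-5p: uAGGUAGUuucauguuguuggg
miR-196b-5p: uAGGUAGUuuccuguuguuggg
miR-10a-5p: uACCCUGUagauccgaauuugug
miR-10b-5p: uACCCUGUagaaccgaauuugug

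Depth was high for this bin size. Totals (M, mega) were 84.5 to 212 M reads for gH2AX, 66.9 to 250.2 M for H2AX and 92.4 to 269 M for input, and a Hox bin held 2125 to 10599 reads in a library. Replicates differed by more than counting error (chi-square over its degrees of freedom from 2.59 to 3.87), and bins varied between replicates beyond counting by a median of 2.12% (gH2AX), 2.13% (H2AX) and 1.86% (input). Reads on chromosome Y made up 1.54% to 1.62% of the 12 libraries labelled male and 0.0869% to 0.100% of the 12 labelled female. The bin that holds Sirt7 had 34.6 to 37.7 CPM (reads scaled to a common library size) in the input of KO cells and 34.4 to 36.5 in that of WT cells. These counts thus do not show the deletion, and the reason was not tested. Fibroblast identity cannot be checked in DNA counts. Levels are CPM over effective library sizes (TMM factors from autosomal bins), which set the genome-wide level of each library equal, so a gain of gH2AX over all chromosomes alike would not show.

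gH2AX lay slightly above input in most of the Hox bins and slightly below it in the Hoxd13 to Hoxd9 bin. The largest ratio was in the Hoxc6 to Hoxc4 bin, where gH2AX was 39.0, 42.4 and 45.2 CPM (lowest, median and highest of 8 libraries) against 37.1, 38.4 and 39.6 CPM in input. The ranges overlapped, but all 8 gH2AX libraries lay above the median of input, and the log2 ratio was 0.15 ± 0.02 (SE, adjusted p = 2.76e-15, edgeR quasi-likelihood F test over all bins, 8 against 8 libraries). In the Hoxb13 bin gH2AX was 38.6, 40.7 and 43.0 CPM against 36.0, 37.0 and 38.1 CPM in input, with no overlap (log2 ratio 0.13 ± 0.02, adjusted p = 1.61e-12). The other HoxB bins had log2 ratios of 0.09 (Hoxb9 to Hoxb6) and 0.07 (Hoxb6 to Hoxb1). The HoxA bins had 0.07 (Hoxa2 to Hoxa4) and 0.08 (Hoxa3 to Hoxa13), and the Hoxd9 to Hoxd1 bin had 0.06. The Hoxc13 to Hoxc6 bin, with 37.0, 37.5 and 39.0 CPM against 35.7, 37.6 and 38.5 CPM in input, did not pass (0.01, adjusted p = 0.471). The Hoxd13 to Hoxd9 bin was lower than input, at 33.2, 35.6 and 36.9 CPM against 35.4, 36.3 and 38.0 CPM, with overlapping ranges and 1 of 8 gH2AX libraries above the input median (-0.04 ± 0.02, adjusted p = 0.024). In all, 7 of 9 Hox bins were called higher than input (adjusted p under 0.05), against 41.5% of the 25703 bins tested, and 1 was called lower, against 45.2%. Their median log2 ratio was 0.07, and that of all bins was -0.01.

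H2AX itself was highest over input in HoxB and in the Hoxc6 to Hoxc4 bin. There it was 43.5, 45.0 and 46.5 CPM against 37.1, 38.4 and 39.6 CPM in input, and the ranges did not overlap (log2 ratio 0.24 ± 0.02, adjusted p = 4.21e-32). The Hoxb9 to Hoxb6 bin had 38.3, 39.4 and 41.4 CPM against 34.0, 35.0 and 35.8 CPM (0.18 ± 0.02, adjusted p = 9.87e-20), again without overlap. All 3 HoxB bins showed such a gap, with 0.13 at Hoxb13 and 0.17 at Hoxb6 to Hoxb1. The share of all bins with such a gap was not counted. The Hoxc13 to Hoxc6 bin had 0.06 and the Hoxa3 to Hoxa13 bin 0.04 (adjusted p = 0.0299). The bins of Hoxa2 to Hoxa4 (-0.03, adjusted p = 0.100) and Hoxd9 to Hoxd1 (0.03, adjusted p = 0.133) did not pass, and the Hoxd13 to Hoxd9 bin was lower than input (-0.05 ± 0.02, adjusted p = 0.00608). Thus 6 of 9 bins were called higher, against 44.9% of all bins, and 1 lower, against 44.5%.

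**Figure D1:**
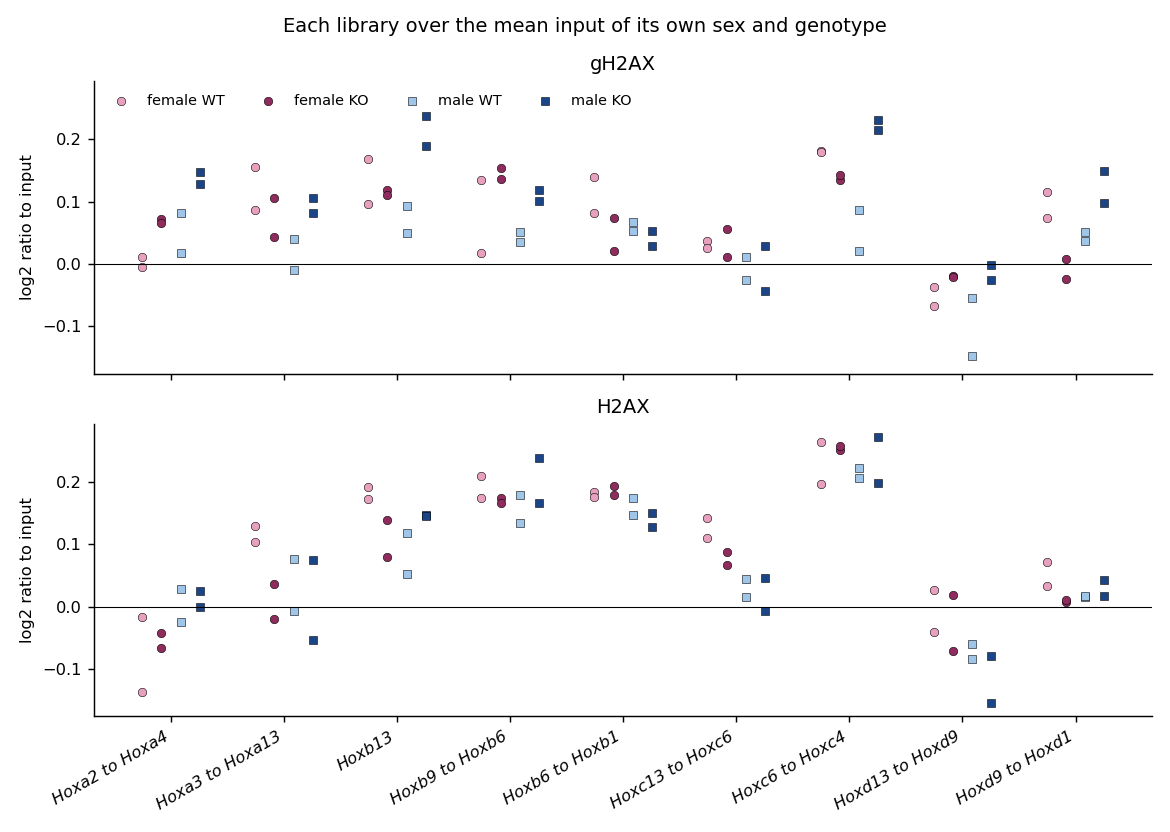
Log2 ratio of each gH2AX (top) and H2AX (bottom) library to the mean input of its own sex and genotype in the 9 Hox bins, with 2 points per group. All 8 points lie above 0 for both marks in the 3 HoxB bins and in the Hoxc6 to Hoxc4 bin, and no gH2AX point lies above 0 in the Hoxd13 to Hoxd9 bin.

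Neighbouring bins of a cluster differed in both marks in HoxC and HoxD. For each library the log2 ratio of adjacent bins was taken. Marks were compared with input by a two-sided exact permutation test over 8 against 8 libraries, adjusted over 10 tests, a comparison chosen after the values were seen. The libraries of all sex and genotype groups were pooled in it and not paired with input. In HoxC the bin of Hoxc6 to Hoxc4 exceeded that of Hoxc13 to Hoxc6 by 0.17 ± 0.08 (SD, log2) for gH2AX and 0.20 ± 0.03 for H2AX, against 0.03 ± 0.04 for input (exact permutation, adjusted p = 0.00544 and 0.00155). In HoxD the bin of Hoxd9 to Hoxd1 exceeded that of Hoxd13 to Hoxd9 by 0.12 ± 0.06 for gH2AX and 0.09 ± 0.04 for H2AX, against 0.01 ± 0.05 for input (adjusted p = 0.00570 and 0.00932, exact permutation). In these 2 clusters the side with the genes of low number thus had the higher ratio. In HoxA one mark passed and the other did not, and the difference between the marks was not tested. H2AX was relatively higher in the bin of Hoxa3 to Hoxa13 (0.03 ± 0.08 against -0.04 ± 0.03 for input, exact permutation adjusted p = 0.0302), and gH2AX had -0.03 ± 0.05 (adjusted p = 0.598, exact permutation). Between Hoxb13 and Hoxb9 to Hoxb6, H2AX passed (-0.04 ± 0.04 against -0.09 ± 0.04 for input, adjusted p = 0.0401, exact permutation) and gH2AX did not (-0.12 ± 0.04, adjusted p = 0.0844, exact permutation). The remaining pair, Hoxb9 to Hoxb6 and Hoxb6 to Hoxb1, passed for neither mark (adjusted p = 0.496 for gH2AX and 0.598 for H2AX, exact permutation).

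Averaged over 20 flanking bins, the surroundings of HoxB were more enriched than HoxB itself, but the bins directly beside it were not. For gH2AX the ratios to input were 0.19 and 0.09 in the second and first bins before the Hoxb13 bin. They were 0.02 and -0.05 in the first and second bins beyond Hoxb1, against 0.13, 0.09 and 0.07 within HoxB. For H2AX they were 0.37, 0.10, -0.0078 and -0.02 in the same order, against 0.13, 0.18 and 0.17 within HoxB. The 3 HoxB bins were thus above the bins directly beside them for H2AX. For gH2AX the bin directly before was level with Hoxb9 to Hoxb6 and above Hoxb6 to Hoxb1. For both marks the 3 HoxB bins were below the second bin before and below the average of the flanks. HoxA and HoxC sat among flanks of middling level. HoxD lay in a stretch whose median was near the level of input, with flanking gH2AX ratios from -0.12 to 0.13. The bins directly before and after HoxD had gH2AX ratios of -0.12 and -0.11, below both HoxD bins (-0.04 and 0.06). For H2AX they had -0.09 and -0.13, also below both HoxD bins (-0.05 and 0.03). The median log2 ratio of gH2AX to input over the flanks was 0.08 for HoxA, 0.24 for HoxB, 0.17 for HoxC and -0.03 for HoxD, and for H2AX it was 0.08, 0.30, 0.15 and -0.04. The 3 HoxB bins averaged 38.4 CPM of gH2AX and 40.1 CPM of H2AX, against 43.2 and 44.5 CPM in the 20 flanking bins and 35.9 against 37.1 CPM in input. The log2 ratio of cluster to flanks was -0.17 ± 0.03 (SD, 8 libraries) for gH2AX and -0.15 ± 0.03 for H2AX. Both ranges lay below that of input (-0.05 ± 0.02, two-sided exact permutation test, adjusted p = 6.22e-04 for each over 8 tests). Without overlap, the unadjusted p is the smallest that this test can give. The libraries of all sex and genotype groups were pooled in it and not paired with input. In HoxC the ratio was -0.04 ± 0.02 for gH2AX against 0.03 ± 0.02 for input (exact permutation, adjusted p = 0.00124), while H2AX, at 0.01 ± 0.02, did not pass (adjusted p = 0.346). HoxD was relatively higher than its flanks in H2AX (-0.03 ± 0.03 against -0.06 ± 0.01 for input, exact permutation adjusted p = 0.0472) and did not pass for gH2AX (-0.03 ± 0.04, adjusted p = 0.103). HoxA passed for neither mark (adjusted p = 0.344 for gH2AX and 0.0753 for H2AX). The flanking bins with the largest gH2AX ratios were those of Snx10 beside HoxA (0.21), of Sp6 to Tbx21 beside HoxB (0.44), of Tns2 to Csad beside HoxC (0.44) and of Atf2 beside HoxD (0.13).

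**Figure D2:**
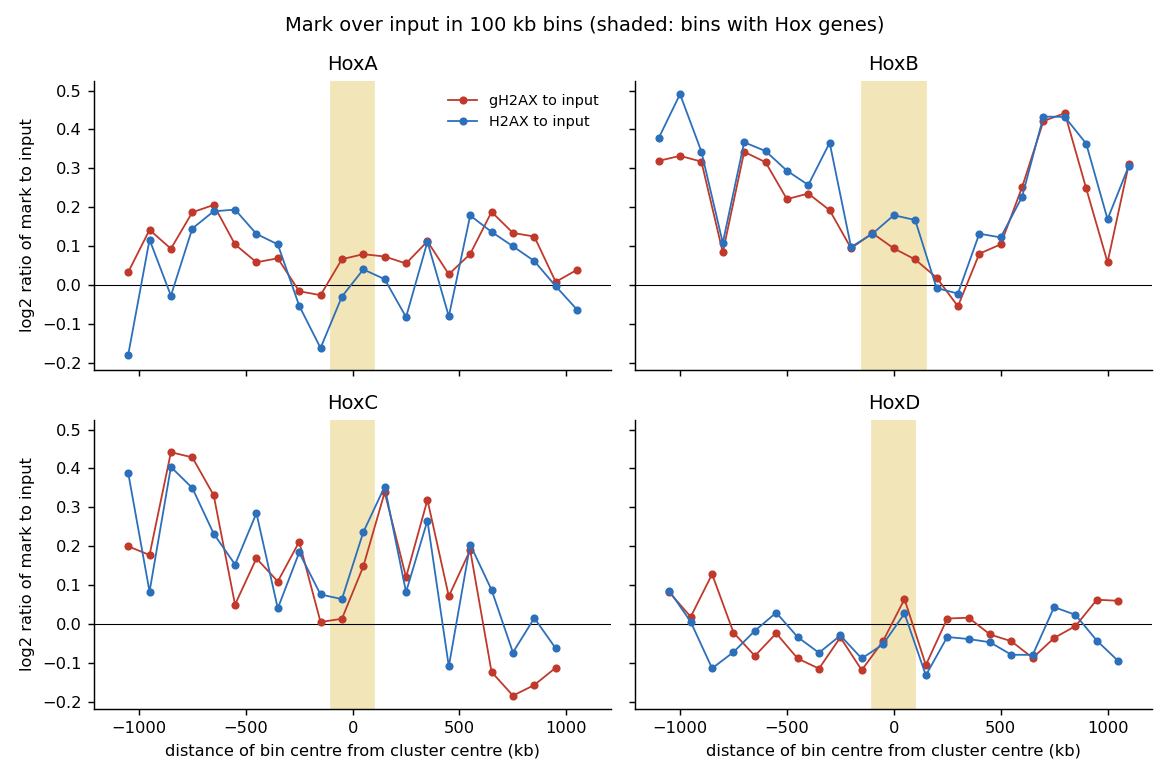
Fitted log2 ratio of gH2AX and H2AX to input (mean over the 4 sex and genotype groups) in 100 kb bins against the distance of the bin from the centre of its cluster, with the Hox bins shaded. HoxB lies among flanks with a median gH2AX ratio of 0.24, with lower values in the bins directly beside it. For gH2AX, HoxC rises from 0.01 to 0.15 within the cluster, and the flanks of HoxD lie on both sides of 0, from -0.12 to 0.13.

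**Figure D3:**
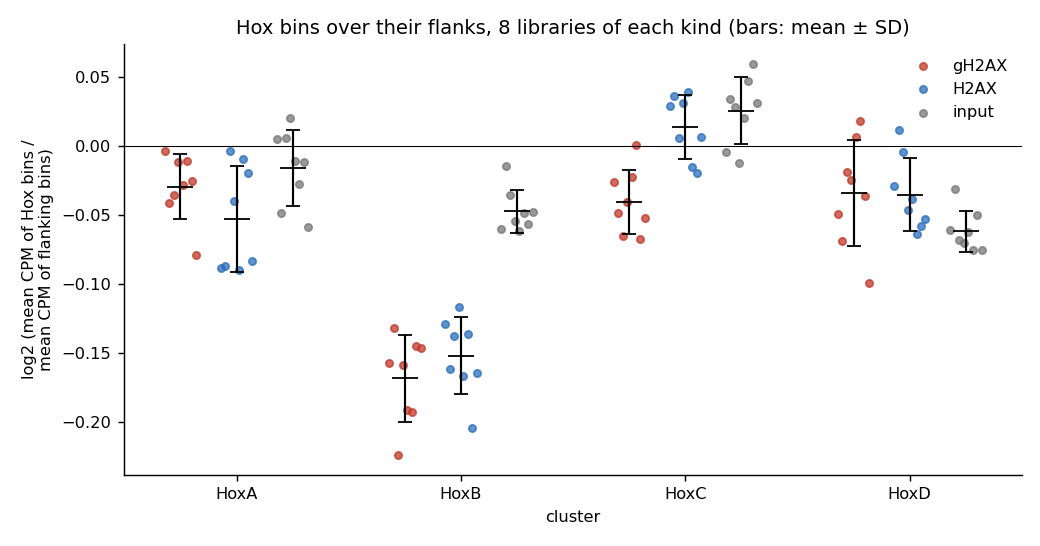
Log2 ratio of the mean CPM of the Hox bins to the mean CPM of the flanking bins for each of 8 libraries of gH2AX, H2AX and input, with mean ± SD. In HoxB all gH2AX and H2AX libraries lie below all input libraries.

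Against other gene-dense DNA the Hox bins were low. The 681 bins tested that hold the midpoints of at least 5 protein-coding genes, Hox bins left out, had a median log2 ratio to input of 0.35 for both marks. Between 17.5% (Hoxd13 to Hoxd9) and 26.3% (Hoxc6 to Hoxc4) of them lay below a given Hox bin for gH2AX. For H2AX this share was 14.1% (Hoxd13 to Hoxd9) to 32.0% (Hoxc6 to Hoxc4). Of the Hox bins, 4 hold 5 or more such genes themselves. For input, 21.4% of all bins lay at or below the lowest Hox bin (Hoxb9 to Hoxb6) and 75.1% at or below the highest (Hoxc6 to Hoxc4). These positions are a description, without a test.

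gH2AX relative to H2AX differed in direction between clusters. It was higher in both HoxA bins, and in HoxC and most of HoxB it was lower. The Hoxa2 to Hoxa4 bin had 38.3, 39.9 and 41.7 CPM of gH2AX against 35.7, 37.4 and 38.8 CPM of H2AX, ranges that overlapped between 38.3 and 38.8 CPM, and a log2 ratio of 0.10 ± 0.02 (SE, adjusted p = 3.35e-07). The Hoxa3 to Hoxa13 bin had 0.04 ± 0.02 (adjusted p = 0.0427). The Hoxb6 to Hoxb1 bin had the lowest ratio, with 36.3, 37.3 and 39.7 CPM of gH2AX against 39.2, 40.3 and 40.9 CPM of H2AX and no gH2AX library above the H2AX median (-0.10 ± 0.02, adjusted p = 7.17e-08). The bins of Hoxb9 to Hoxb6 and Hoxc6 to Hoxc4 both had -0.09 and that of Hoxc13 to Hoxc6 -0.05 (adjusted p = 0.00699). The Hoxb13 bin (0.0014) and the HoxD bins (0.01 at Hoxd13 to Hoxd9 and 0.04 at Hoxd9 to Hoxd1, adjusted p = 0.691 and 0.052) did not pass. In all, 2 of 9 bins were called higher, against 38.5% of all bins, and 4 lower, against 36.6%. A ratio between antibodies shows how bins rank within each mark, not what share of the H2AX in a bin is phosphorylated.

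Whether loss of SIRT7 changed gH2AX at the clusters was asked in each sex. In males gH2AX rose in 1 bin of each cluster and fell in none. The change was largest in the Hoxc6 to Hoxc4 bin, where the KO libraries had 45.2 and 44.7 CPM and the WT libraries 39.0 and 40.8 CPM, without overlap. The log2 change was 0.17 ± 0.04 (SE, adjusted p = 1.74e-05), which is 12.9% more scaled gH2AX reads in this bin. The absolute amount of gH2AX was not measured. The Hoxb13 bin had 43.0 and 41.6 CPM in KO against 39.7 and 38.6 CPM in WT (0.11 ± 0.04, adjusted p = 0.00824). In the Hoxa3 to Hoxa13 bin the KO libraries had 39.4 and 40.1 CPM and the WT libraries 37.8 and 36.5 CPM (0.10 ± 0.04, adjusted p = 0.0184). The Hoxd13 to Hoxd9 bin had 36.9 and 36.3 CPM in KO against 35.4 and 33.2 CPM in WT (0.09 ± 0.04, adjusted p = 0.0411). In these 3 bins the groups did not overlap either.

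The other Hox bins did not pass in males. Hoxa2 to Hoxa4 had 41.1 and 41.7 CPM in KO against 40.0 and 38.3 CPM in WT (0.08, adjusted p = 0.0559), and Hoxd9 to Hoxd1 had 39.0 and 40.4 CPM against 38.0 and 37.6 CPM (0.07, adjusted p = 0.0845). Hoxb9 to Hoxb6 had 38.1 and 37.6 CPM against 36.2 and 35.8 CPM (0.07, adjusted p = 0.0929). In all of these the KO libraries lay above the WT libraries. How many of all bins show such a gap was not counted, here or for the called bins. The groups overlapped in the bins of Hoxc13 to Hoxc6 (0.02, adjusted p = 0.627) and Hoxb6 to Hoxb1 (-0.0020, adjusted p = 0.969). Thus 4 of 9 Hox bins were called higher, against 22.4% of all bins, and none lower, against 22.2%. At an unadjusted p under 0.05 (edgeR) there were 7 of 9, a threshold that at least 11481 of the 25702 bins tested also passed. The median of the 9 was 0.08, against -0.01 over all bins, 0.06 over the flanks and 0.11 over the gene-dense bins, of which 424 of 681 were higher and 88 lower.

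These calls depended on how the ratio of mark to input was treated. After the trend of each library on that ratio was removed, 0 of 9 Hox bins passed with edgeR (2 at an unadjusted p under 0.05, a setting not run with DESeq2), with a median of 0.05 and with 0.11 and an adjusted p of 0.0770 in the Hoxc6 to Hoxc4 bin. The number of all bins called went from 11481 to 421. With the change of input subtracted, Hoxb13 and Hoxc6 to Hoxc4 passed, and with that of H2AX subtracted, a setting chosen after seeing the data, Hoxc6 to Hoxc4 alone. The number was 1 without male WT replicate 2 (Hoxc6 to Hoxc4) and 2 without male KO replicate 1 (Hoxa3 to Hoxa13 and Hoxc6 to Hoxc4) or without male KO replicate 2 (Hoxb13 and Hoxc6 to Hoxc4).

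The flanks were read beside the clusters. Over cluster means, the log2 ratio of KO to WT was 0.09 in HoxA and 0.06 in its flanks, 0.06 in HoxB and 0.11 in its flanks, 0.10 in HoxC and 0.05 in its flanks, and 0.08 in HoxD and 0.0016 in its flanks. In HoxD the means of the Hox bins were 37.9 and 38.3 CPM in KO against 36.7 and 35.4 CPM in WT, and those of the flanks were 37.8 and 37.8 CPM against 37.6 and 37.9 CPM, so that in HoxD the genotypes were apart in the Hox bins and overlapped in the flanks. With 2 libraries a group the difference between a cluster and its flanks was not tested. Of 79 flanking bins tested, 26 were called higher and 4 lower, against 22.4% and 22.2% of all bins. The largest rises were at Jazf1 beside HoxA (0.12), Cdk5rap3 to Sp2 beside HoxB (0.24), Espl1 to Sp7 beside HoxC (0.17) and Nfe2l2 beside HoxD (0.14). The 4 falls were in adjacent bins beyond HoxC, at chr15:103600001-103700000 (-0.20) and chr15:103700001-103800000 (-0.12), where no midpoint of a coding gene lies, and at Mucl2 (-0.15), and in the bin of Lnpk next to Hoxd13 (-0.11). After removal of the trend on enrichment, 0 of 79 flanking bins were called (edgeR, 6 at an unadjusted p under 0.05), against 421 of all bins. DESeq2, without that removal, called 21 flanking bins higher and 4 lower, against 4874 and 4360 of all bins.

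**Figure D4:**
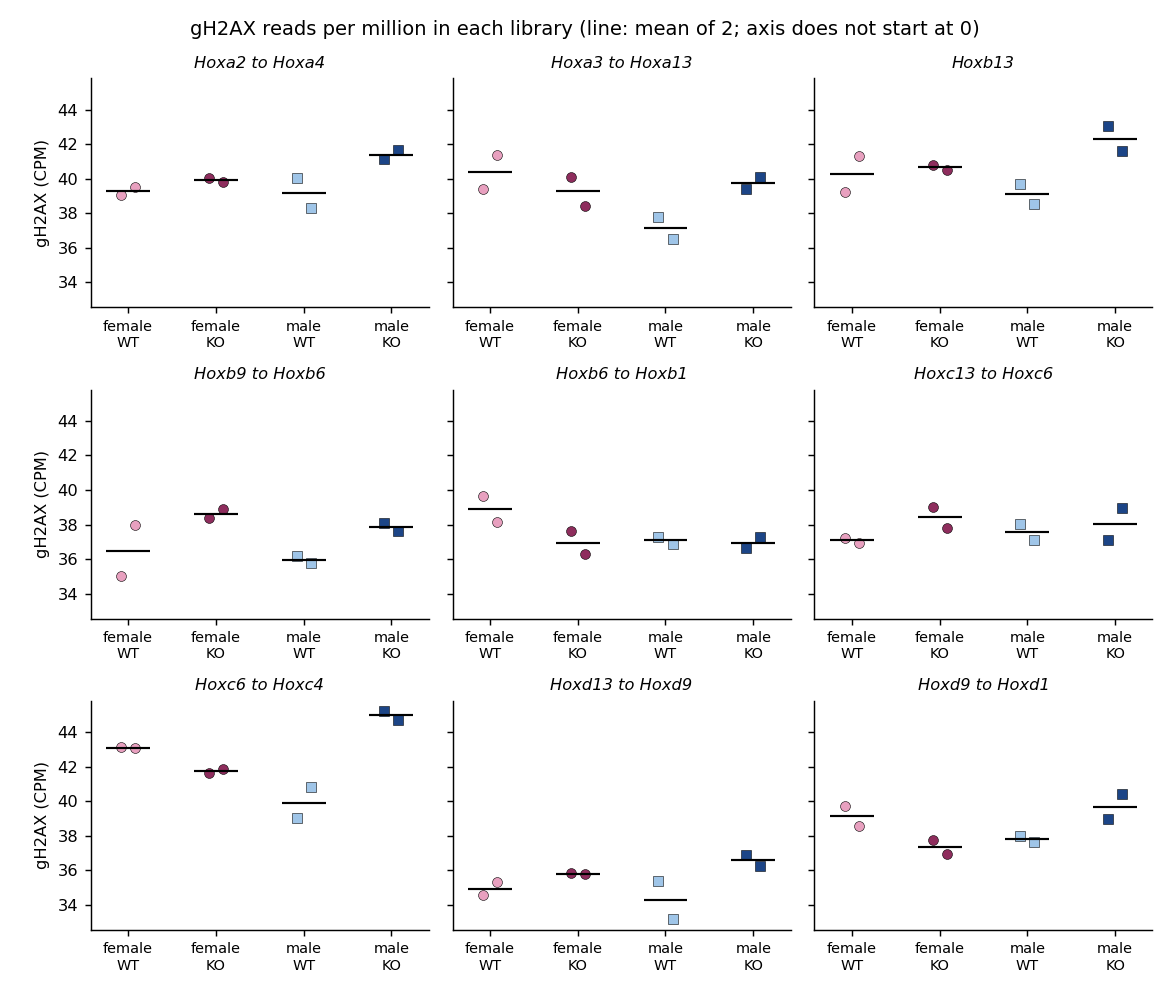
gH2AX of each library in CPM in the 9 Hox bins, by sex and genotype, with the mean of 2 libraries as a line (the axis does not start at 0). In the Hoxc6 to Hoxc4 bin male KO libraries are at 45.2 and 44.7 CPM and male WT libraries at 39.0 and 40.8 CPM, while female KO libraries lie below female WT libraries.

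In females no Hox bin was called for gH2AX. The calls were 0 of 9 with edgeR and with DESeq2, against 1.01% of all bins, and 1 bin had an unadjusted p under 0.05. That bin, Hoxb9 to Hoxb6, had 38.4 and 38.9 CPM in KO against 35.0 and 37.9 CPM in WT (0.08 ± 0.04, adjusted p = 0.300). The lowest change was in the Hoxb6 to Hoxb1 bin, with 37.6 and 36.3 CPM against 39.7 and 38.1 CPM (-0.07 ± 0.04, adjusted p = 0.36). The 9 changes had a median of 0.01 and differed in sign, 5 above 0 and 4 below. None of the 79 flanking bins was called by edgeR or DESeq2, with 15 at an unadjusted p under 0.05 (edgeR).

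The effect of KO differed between the sexes in 3 Hox bins. The difference (female effect minus male effect) was -0.22 ± 0.05 in the Hoxc6 to Hoxc4 bin (adjusted p = 1.92e-04), where female KO libraries had 41.6 and 41.8 CPM and both female WT libraries 43.1 CPM, the reverse of the order in males. It was -0.14 ± 0.05 in the Hoxa3 to Hoxa13 bin (adjusted p = 0.0212), with 40.1 and 38.4 CPM in female KO against 39.4 and 41.4 CPM in female WT. It was -0.14 ± 0.05 in the Hoxd9 to Hoxd1 bin (adjusted p = 0.0221), with 37.7 and 36.9 CPM against 39.7 and 38.6 CPM. The 3 of 9 compare with 20.4% of all bins called lower, and no Hox bin was called higher, against 20.1%. Removal of the trend on enrichment left 0 of 9 (edgeR, 1 at an unadjusted p under 0.05, not run with DESeq2), and subtraction of the H2AX change left the Hoxc6 to Hoxc4 bin. Without female KO replicate 2, male KO replicate 2 or male WT replicate 2, 1 of 9 was called each time. Each group is 1 pair of libraries, so a difference between the sexes cannot be told apart from one between these cell preparations.

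H2AX showed no called change with genotype at the clusters. In each sex and for the difference between sexes, 0 of 9 Hox bins were called by edgeR and by DESeq2, against 0.152% of all bins in females, 0.191% in males and 0.272% for the difference. At an unadjusted p under 0.05 there was 1 bin in females and none in the other comparisons. This bin, Hoxa3 to Hoxa13, had 36.8 and 38.2 CPM of H2AX in female KO against 39.9 and 40.6 CPM in female WT (-0.11 ± 0.04, adjusted p = 0.661), without overlap. In the Hoxc6 to Hoxc4 bin, where male gH2AX changed most, male H2AX was 46.5 and 44.2 CPM in KO and 44.4 and 44.9 CPM in WT (0.03 ± 0.03, adjusted p = 0.876).

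Input showed no called change at the clusters. For KO against WT, 0 of 9 bins passed in females, in males and for the difference between sexes (edgeR and DESeq2, and 0 at an unadjusted p under 0.05), against 0.183%, 0.222% and 0.261% of all bins. The input changes of the 9 bins ranged from -0.04 to 0.05 in females and from -0.03 to 0.02 in males. In the Hoxc6 to Hoxc4 bin male input was 38.4 and 38.7 CPM in KO and 39.6 and 37.3 CPM in WT.

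**Figure D5:**
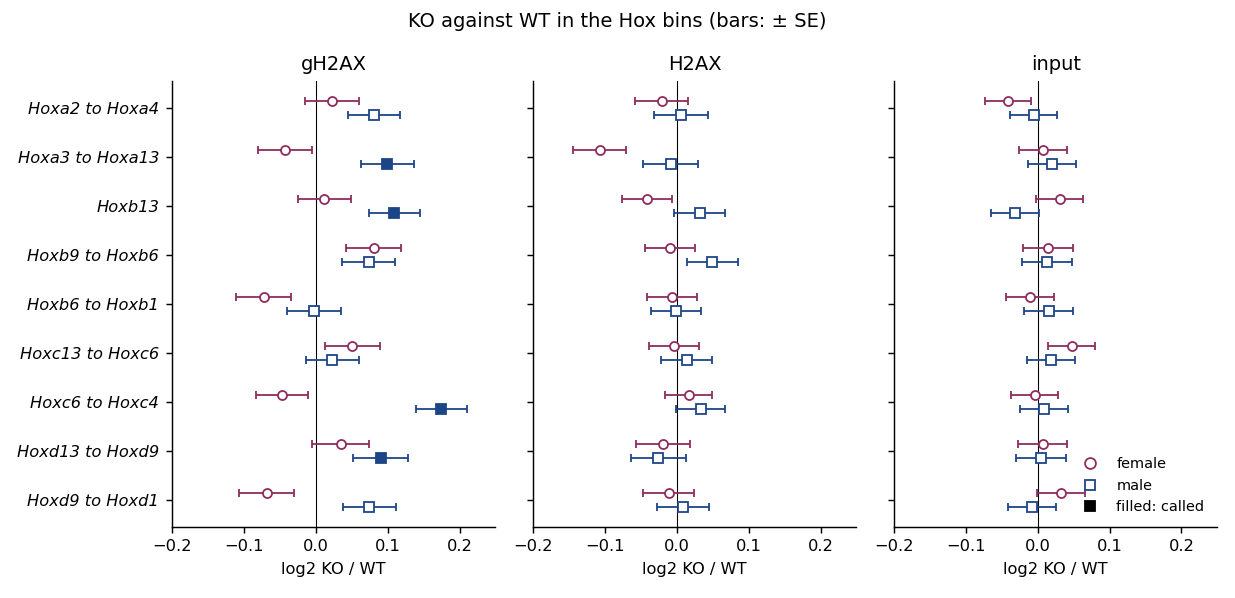
Log2 change of KO against WT in the 9 Hox bins for gH2AX, H2AX and input (points ± SE, females as circles and males as squares, filled where the adjusted p was under 0.05). The only filled points are 4 male gH2AX changes between 0.09 and 0.17.

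A pair of lists of related genes was read in the same way. One held 29 genes that act with or on Hox genes, such as the Pbx and Meis cofactors, the Cdx activators, the Polycomb genes Ezh2, Bmi1 and Cbx7 and the demethylase gene Kdm6a, in 46 bins. The other held 73 further homeobox genes in 77 bins. The ratio of gH2AX to input was higher in 37 of 46 cofactor bins and lower in 3 (median 0.19, from -0.05 at Bmi1 to 0.59 at Pbx4), against 41.5% and 45.2% of all bins. It was higher in 58 of 77 homeobox bins and lower in 8 (median 0.15, from -0.40 at Alx1 to 0.72 at Six5). In male KO cells gH2AX rose in 25 of 46 cofactor bins and fell in 1 (median 0.09, from -0.12 at Kdm6a to 0.20 at Cbx7), against 22.4% and 22.2% of all bins. It rose in 32 of 77 homeobox bins and fell in 1 (median 0.07, from -0.11 at Alx1 to 0.22 at Six5). After removal of the trend on enrichment no bin of either list was called higher (edgeR, with 6 of 46 and 8 of 77 at an unadjusted p under 0.05 in either direction), and the medians were 0.0031 and 0.0061. In females the medians were below 0, at -0.03 for the cofactors and -0.02 for the homeobox genes, and no bin of either list was called higher. Of the cofactor bins, 0 of 46 were called in females by edgeR or DESeq2, with 5 at an unadjusted p under 0.05 (edgeR). For H2AX no bin of either list was called in either sex by edgeR or DESeq2, and at an unadjusted p under 0.05 (edgeR) there were 5 of 46 and 8 of 77 in females and 3 of 46 and 7 of 77 in males. Of these bins input was called at Six2 and Six3 in males (-0.15, adjusted p = 0.0219, edgeR), and DESeq2 called none.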

How the data were processed

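ChIP-seq libraries of gH2AX, H2AX and input from irradiated MEFs (24 libraries, 12 groups of 2) were analysed. The authors deposited unnormalised read counts of every 100 kb bin. The build was mm10, and the submitters' processing notes name Bowtie2 (2.2.9), SAMtools (0.1.19), Trimmomatic (0.36), FastQC (0.11.3), MACS2 (2.2.7.1) and deepTools (2.4.2), with no role or order. The handling of duplicates and of reads with several alignments is not given in the sources used here. Another 24 columns matched no labelled sample and were not used.

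Counts on chromosomes 1 to 19 and X were filtered with filterByExpr, scaled with TMM factors from autosomal bins and tested in R 4.3.3 with the quasi-likelihood F test of edgeR 4.0.16 (two-sided). KO was compared with WT within each kind of library (8 libraries, 25702 or 25703 bins), and marks with input in a fit of all 24. Benjamini-Hochberg adjusted p-values are over all bins tested, and a bin was called below 0.05. Standard errors were derived from F (size of the log2 change over its square root). Of the 80 flanking bins, 1 beyond HoxC failed the filter. The tests were checked on simulated counts in which few bins changed and no trend on enrichment was present. That setting differs from the male gH2AX data, so the check does not bear on those calls. DESeq2 1.42.0, a replicate block, no filter, removal of each library's trend on the ratio of mark to input, subtraction of the input or H2AX change and the omission of single libraries were the alternatives.

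All bins that overlap a listed Hox gene (RefSeq, GRCm38.p6, the sequence of mm10) are named. Of the flanks and the lists, the most changed bins are named. Marker lists of fibroblasts, epithelial, haematopoietic, endothelial and neuronal cells were fixed as well. Read counts of DNA do not measure expression, so their result is given only as called bins in the closing section. A call in the female gH2AX result of the homeobox list is not reported here. The members and lists were chosen with earlier results of these data known.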

Additional observations from a re-analysis of the deposited data

Results flagged for a closer look

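The effect of KO on gH2AX differed between female and male MEFs in 3 Hox bins, by the test of the difference itself (edgeR quasi-likelihood F test, 8 libraries, adjusted over 25702 bins). The difference, female effect minus male effect on the log2 scale, was -0.22 in the Hoxc6 to Hoxc4 bin (adjusted p = 1.92e-04), -0.14 in the Hoxa3 to Hoxa13 bin (adjusted p = 0.0212) and -0.14 in the Hoxd9 to Hoxd1 bin (adjusted p = 0.0221). In the Hoxc6 to Hoxc4 bin the male change was 0.17 and the female change -0.05, and both male KO libraries lay above both male WT libraries while both female KO libraries lay below both female WT libraries. The same order of libraries held in the Hoxd9 to Hoxd1 bin, with changes of 0.07 in males and -0.07 in females. In the Hoxa3 to Hoxa13 bin the changes were 0.10 and -0.04, and the female libraries overlapped. H2AX in the Hoxa3 to Hoxa13 bin had a difference of -0.10 (adjusted p = 0.718), and gH2AX there had -0.05 (adjusted p = 0.644) once the H2AX change was subtracted. Of all bins, 20.4% were called lower for this difference. The part of sex, culture or library in it cannot be told apart.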

How the results depend on the processing

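Of 162 recomputed counts of called Hox bins, 151 stayed within 1.5 times the count first given. The exceptions belonged to gH2AX in males and to its difference between sexes, and the cause was not tested. For KO against WT in males the count of 4 became 0 after removal of the trend on enrichment, 2 with the input change subtracted and 1 with the H2AX change subtracted (chosen after seeing the data). For the difference between sexes the count of 3 became 0 after removal of the trend and 1 with the H2AX change subtracted. Without 1 library at a time the counts ranged from 1 to 5 in males, from 1 to 3 for the difference between sexes, from 7 to 8 for gH2AX against input, from 6 to 8 for H2AX against input and from 5 to 7 for gH2AX against H2AX, and they were 0 in the other 7 comparisons. The Hoxc6 to Hoxc4 bin was called in males under each omission of a library, with DESeq2, with the block and with either subtraction, and not after removal of the trend. Over all bins, the male count of 11481 became 421 after removal of the trend and 5027 with the input change subtracted, the female count of 260 became 109 with DESeq2, 61 after removal of the trend, 100 with the input change subtracted and 61 with the H2AX change subtracted, and the count of 10404 for the difference between sexes became 216 after removal of the trend and 5950 with the input change subtracted. Of 1350 recomputed values of single Hox bins, 54 lost and 12 gained a call, and none that was called changed sign.

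Libraries of the same replicate number showed at most weak correlation, and the main fits did not pair them. Deviations of libraries with the same number correlated with r of 0.04 to 0.09 between gH2AX groups and of -0.03 to 0.03 between H2AX groups. With a replicate block 5 Hox bins were called in males (Hoxa2 to Hoxa4 added), 3 for the difference between sexes and 0 in females, and the female count over all bins was 362. The planned removal of a trend on GC content, alone and with the block, was not run, because no genome sequence was used here. Replicates varied beyond counting error, so the spread of 2 libraries a group limits these calls more than depth does.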

Other observations

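Bins that hold marker genes of 5 cell types were counted in the same way. gH2AX of male KO cells was called higher than in WT cells in 3 of 16 fibroblast bins (1 lower), 4 of 7 epithelial bins (0 lower), 1 of 8 haematopoietic bins (1 lower), 2 of 6 endothelial bins (0 lower) and 3 of 12 neuronal bins (1 lower), against 22.4% of all bins higher and 22.2% lower. After removal of the trend on enrichment, 1 fibroblast bin was called higher, and 1 fibroblast and 1 neuronal bin were called lower. In females 1 fibroblast and 1 epithelial bin were called lower in KO cells, against 0.595% of all bins, and no other was called.

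gH2AX relative to H2AX was called higher in 14 of 16 fibroblast bins (0 lower), 4 of 7 epithelial bins (3 lower), 3 of 8 haematopoietic bins (3 lower), 3 of 6 endothelial bins (1 lower) and 3 of 12 neuronal bins (7 lower), against 38.5% of all bins higher and 36.6% lower. The medians ran from -0.09 in neuronal to 0.13 in fibroblast bins.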
